A study of Mus musculus with 43 samples.

Results

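The Fos and Jun family is a set of 7 mouse genes, Fos, Fosb, Fosl1, Fosl2, Jun, Junb and Jund, whose proteins make up the AP-1 transcription factor. The members were found by their gene symbols among the 55804 gene rows that each of 2 tables of brain RNA abundance holds, and all 7 have a row in each. The family was chosen by measured values: its members' differences between the groups of both tables were known when it was picked. Those levels and differences are therefore a description, given without p-values for the members.

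The mice were 2 models of Alzheimer's disease given the NRF2 inducer CDDO-2P-Im (2P-Im), a synthetic oleanane triterpenoid, per os, 30 µmol/kg at each of 3 doses a week. In the AppNLGF table, at 6 months of age, 13 libraries came from AppNLGF mice (AppNL-G-F/NL-G-F) after 4 weeks of 2P-Im, 11 from AppNLGF mice on vehicle, and 4 from wild type mice on vehicle. In the APP/TAU table, at 11 months, 5 libraries each came from APP/TAU mice (APPV717I::TAUP301L) after 2 weeks of 2P-Im, from APP/TAU mice on vehicle and from wild type mice on vehicle. Vehicle was 10% DMSO and 10% Cremophor EL in PBS, and the labels call the tissue brain with no region. Neither table has wild type mice given 2P-Im, so every 2P-Im value comes from a disease model. AppNLGF mice carry their mutations in their own App gene, APP/TAU mice carry mutant APP and TAU transgenes, and the labels name no promoter for them. The libraries of a group are numbered as replicates without a statement that each is a separate mouse, so p-values measure the spread between libraries, which may be technical in part.

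AP-1 is a dimer of a basic leucine zipper protein of the Jun group with one of the Fos group, or of Jun proteins with each other, and Fos proteins cannot pair among themselves. Fos, Fosb, Jun and Junb are immediate early genes: in neurons their RNA appears within minutes of synaptic activity, growth factor or stress signals, carried by CREB, SRF and MEF2 factors that need no new protein, and decays quickly. Fos RNA is therefore widely read as a mark of recently active neurons, while Jund is made more evenly, Fosl2 follows later, and Fosl1 is mostly known from proliferating and inflamed tissue.

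Values are TPM, a relative abundance in which reads are divided by transcript length, so levels of different genes can be set side by side. The depth of each library is unknown because TPM keep no read counts. One RNA took 28.3 to 40.0% of the TPM in AppNLGF treated libraries, 29.1 to 38.0% in AppNLGF vehicle and 30.7 to 33.7% in wild type, against 27.9 to 31.2% in APP/TAU treated, 15.5 to 29.1% in APP/TAU vehicle and 24.9 to 34.5% in wild type libraries of 11 months. A second set of values was therefore rescaled by the median ratio over all tested genes, called scaled TPM here. The brain markers of the 2 tables differed: the summed TPM of 6 cerebellar markers (Pcp2, Calb1, Cbln1, Cbln3, Gabra6, Car8) was 20.7 to 36.2 at 6 months and 365 to 575 at 11 months. No marker of the 16 lists was at 0 throughout a group. In such bulk tissue, fewer cells of a type and less RNA per cell cannot be told apart. Xist, an RNA made from the inactive X chromosome of females, was above 10 TPM in 7 of 13 AppNLGF treated, 5 of 11 AppNLGF vehicle and 0 of 4 wild type libraries, and in 0 of 15 libraries of the APP/TAU table.

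Stretches of 250 bases before the RefSeq start of Fos, Fosb, Jun and Junb (GRCm38.p6) are shown because these are the family's immediate early genes. The members' differences in the AppNLGF table were known when these stretches were picked. Capitals mark the motifs found. The search on both strands was for the full cAMP response element TGACGTCA and its core TGACG, which lies within it, for the AP-1 site TGANTCA and the related TGACATCA, for the NRF2-type core TGACNNNGC, for the TATA box TATAAA, for the CCAAT box, and for 2 longer motifs known by name, the CArG box of SRF and a MEF2 site. The stretches lie at chr12:85473640-85473889 (plus strand), chr7:19310046-19310295 (minus), chr4:95052223-95052472 (minus) and chr8:84978749-84978998 (minus), in that order.
Fos: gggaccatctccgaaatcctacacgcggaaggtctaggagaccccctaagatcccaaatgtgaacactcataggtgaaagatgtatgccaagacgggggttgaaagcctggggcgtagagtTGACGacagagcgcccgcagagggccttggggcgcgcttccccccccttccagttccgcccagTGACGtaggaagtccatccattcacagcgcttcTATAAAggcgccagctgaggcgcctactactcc
Fosb: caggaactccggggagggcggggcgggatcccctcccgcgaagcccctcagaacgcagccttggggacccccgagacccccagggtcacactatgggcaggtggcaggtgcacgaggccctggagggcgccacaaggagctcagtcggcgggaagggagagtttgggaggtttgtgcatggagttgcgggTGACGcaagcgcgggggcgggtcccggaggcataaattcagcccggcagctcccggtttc
Jun: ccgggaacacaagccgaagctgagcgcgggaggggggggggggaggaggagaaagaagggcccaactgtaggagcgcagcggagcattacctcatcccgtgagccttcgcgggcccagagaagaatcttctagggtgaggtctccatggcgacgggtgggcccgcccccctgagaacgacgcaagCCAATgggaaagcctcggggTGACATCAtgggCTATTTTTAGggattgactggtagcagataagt
Junb: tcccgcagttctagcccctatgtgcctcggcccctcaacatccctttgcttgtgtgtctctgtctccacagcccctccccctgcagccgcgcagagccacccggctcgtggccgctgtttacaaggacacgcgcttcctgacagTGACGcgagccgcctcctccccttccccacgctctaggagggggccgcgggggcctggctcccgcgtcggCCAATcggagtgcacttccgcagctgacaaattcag
Counted back from the start, Fos has TGACG, the core that CREB and ATF proteins read, at -129 and at -66, and a TATA box, TATAAA, at -33. Fosb has TGACG at -60 and Junb has it at -106. Jun has no TGACG in this stretch; it has TGACATCA at -45, a site known to be read by Jun with ATF2, and the MEF2 site at -33, the third run of capitals. CCAAT stands at -65 in Jun and at -36 in Junb. Over 32851 mouse promoters of the same length, TGACG was found in 17.8%, TATAAA in 12.4%, CCAAT in 33.8%, TGACATCA in 2.93% and the MEF2 site in 0.103%. None of the 4 stretches holds the full response element (1.55% of all promoters), the AP-1 site (6.75%), the NRF2-type core (10.2%) or a CArG box (1.47%). A match is a run of letters and was not tested as a binding site. Whether these motifs go with the members' differences between groups was not tested either. Sites farther than 250 bases before the start were not searched, so a motif absent here may stand beyond the stretch.

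Jund RNA was the most abundant of the family in all 43 libraries. In AppNLGF 2P-Im libraries Jund averaged 70.9 ± 7.96 TPM (SD, n = 13), Junb 37.9 ± 12.9, Fos 14.8 ± 6.82, Jun 13.3 ± 3.00, Fosl2 11.3 ± 3.74 and Fosb 6.26 ± 1.58. In AppNLGF vehicle libraries the order changed below Junb: Jund averaged 67.7 ± 2.86 TPM (n = 11), Junb 18.1 ± 2.97, Jun 12.9 ± 2.59, Fosl2 10.3 ± 3.21, Fos 6.01 ± 1.70 and Fosb 5.54 ± 1.44. Wild type libraries of 6 months had Jund at 79.7 ± 3.92 TPM (n = 4), Junb at 48.6 ± 14.9, Fos at 22.0 ± 7.22, Jun at 15.7 ± 2.95, Fosl2 at 13.3 ± 4.68 and Fosb at 8.57 ± 1.96. Fos was above Jun in 7 of 13 treated, 0 of 11 vehicle and 3 of 4 wild type libraries, and the ranges of Jun and Fosl2 overlapped in each of these groups. In all 3 groups of the APP/TAU table the order of the means was Jund, Junb, Fos, Jun, Fosl2, Fosb, with Fos above Jun in 4 of 5 treated, 5 of 5 vehicle and 5 of 5 wild type libraries.

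Fosl1, which encodes the Fos group protein FRA-1, was at the bottom of the range in both tables and was not tested because its mean was below 1 TPM. It was listed at 0 in 9 of 13 AppNLGF treated, 6 of 11 AppNLGF vehicle and 3 of 4 wild type libraries, and its highest value was 0.151 TPM. In the APP/TAU table it was listed at 0 in 5 of 5 treated, 3 of 5 vehicle and 2 of 5 wild type libraries. The other 6 members passed the minimum in both tables.

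**Figure D1:**
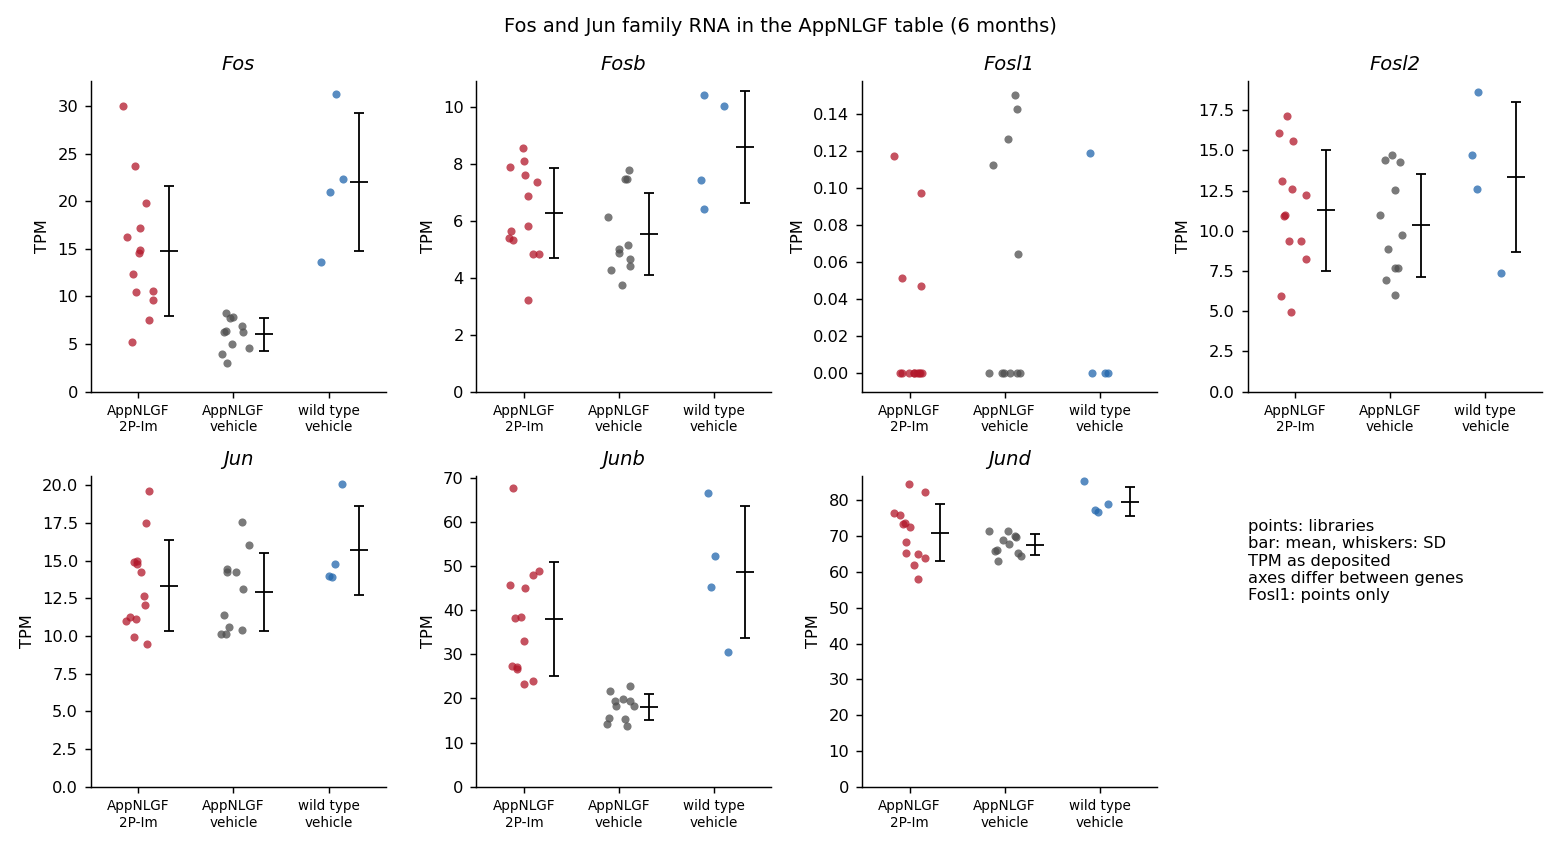
Each panel shows the TPM of a family member in the AppNLGF table, 1 point per library, for AppNLGF mice on 2P-Im (n = 13), AppNLGF mice on vehicle (n = 11) and wild type mice on vehicle (n = 4); the bar is the mean and the whiskers are the SD, and Fosl1 is shown as points alone. Fos and Junb are low in the vehicle libraries, while Jun and Jund overlap between 2P-Im and vehicle.

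In AppNLGF mice on vehicle, Fos and Junb were lower than in wild type mice, and the rest of the family differed less. Fos, the partner that gives AP-1 most of its activity after stimulation (chromosome 12, 85473890 to 85477273, GENCODE M21 on GRCm38), lay between 2.96 and 8.25 TPM with a median of 6.27 in vehicle libraries, against 22.3, 31.2, 21.0 and 13.6 TPM in wild type libraries 1 to 4. Every vehicle library was below the lowest wild type library. The difference was -1.71 ± 0.29 (SE) in log2(TPM + 1), with a 95% interval of -2.30 to -1.11. Junb, a Jun protein that pairs with Fos and is a weaker activator than Jun at many sites (chromosome 8, 84974484 to 84978718), lay between 13.8 and 22.7 TPM with a median of 18.4 in vehicle libraries, against 52.4, 66.4, 45.2 and 30.6 TPM in wild type. Again the groups did not overlap, and the difference was -1.34 ± 0.21 (-1.78 to -0.91). Of the 6 members tested, 2 fell at a limma adjusted p below 0.05 and none rose, where 0.28% of all 16776 genes were called in either direction and 0.691% with scaled TPM, and 0.0596% and 0.137% were lower. With scaled TPM the differences were -1.68 ± 0.26 for Fos and -1.31 ± 0.20 for Junb, and the median of all genes was -0.03 as deposited.

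The members that did not pass had smaller differences of the same sign. Fosb, whose truncated product is known to accumulate with repeated activity in other settings (chromosome 7, 19302696 to 19310051), lay between 3.74 and 7.77 TPM with a median of 5.01 in vehicle, against 6.40, 10.0, 10.4 and 7.44 TPM in wild type, and 8 of 11 vehicle libraries were below every wild type library (-0.56 ± 0.18). Jund, the most even of the Jun group (chromosome 8, 70698949 to 70700616), lay between 63.0 and 71.5 TPM in vehicle, against 77.5, 79.1, 85.4 and 76.9 TPM in wild type. Those ranges did not overlap, yet the difference was small (-0.23 ± 0.07), and with scaled TPM 9 of 11 vehicle libraries were below every wild type library. Non-overlap with lower vehicle values was seen in 0.262% of all genes, and in 0.203% with scaled TPM. For Fosl2, the FRA-2 gene (chromosome 5, 32135801 to 32157842), the difference was -0.33 ± 0.26. That of Jun, the founding Jun protein and a target of the JNK kinases (chromosome 4, 95049034 to 95052222), was -0.27 ± 0.15, and both overlapped widely between groups.

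In AppNLGF mice given 2P-Im, Fos and Junb RNA were higher than in AppNLGF mice on vehicle, and their relatives were close to the vehicle level. Fos lay between 5.22 and 30.0 TPM with a median of 14.5 in treated libraries, against 2.96 to 8.25 TPM with a median of 6.27 in vehicle libraries. Treated libraries 5 and 7 fell within the vehicle range and the other 11 were above it. The ratio of the means was 2.46, and the difference was 1.09 ± 0.20. Junb lay between 23.2 and 67.6 TPM with a median of 38.2 in treated libraries, against 13.8 to 22.7 TPM with a median of 18.4 in vehicle. All 13 treated libraries were above every vehicle library, the ratio of the means was 2.10 and the difference was 0.98 ± 0.15 (0.67 to 1.28). Treated library 10 had the highest and treated library 5 the lowest value of both genes.

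Of the 6 members tested, 2 rose in this comparison and none fell, where 0.0536% of all genes were called in either direction and 0.286% with scaled TPM, and 0.0477% and 0.244% were higher. With scaled TPM Fos differed by 1.13 ± 0.18 (95% interval 0.76 to 1.49) with 12 of 13 treated libraries above every vehicle library, and Junb by 1.02 ± 0.14, also with 12 of 13. As deposited, all treated libraries were above all vehicle libraries in 0.00596% of genes, which was 1 gene, Junb itself. With scaled TPM the share was 0.0179%, with no member among them. Without vehicle library 2, 3, 4 or 11, or without treated library 3, the Fos call was lost with deposited TPM while its difference was still 1.01 to 1.07; with scaled TPM it held in all 24 fits that left out a library, and Junb was called in all 24 with either scale. Fosb differed by 0.15 ± 0.13, Fosl2 by 0.10 ± 0.18, Jun by 0.03 ± 0.11 and Jund by 0.06 ± 0.05, and the 95% intervals of these 4 members reached at most 0.46.

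The treated AppNLGF libraries were also set against the wild type libraries. None of the 6 members was called, where 0.262% of all genes were, and 0.715% with scaled TPM. With a term for replicate numbers 1 to 5, 5 members (Fos, Fosb, Fosl2, Jun and Jund) were called with deposited TPM, among 5155 genes, and 0 with scaled TPM. With the replicate number as a block, 3 (Fosb, Fosl2 and Jun) were called with deposited TPM, among 3222 genes, and 0 with scaled TPM. Fos differed by -0.62 ± 0.28 (-1.20 to -0.04), with 6 of 13 treated libraries below every wild type library as deposited and 7 of 13 scaled. Of all genes 0.101% and 0.179% lay wholly below, and the share with as many libraries below as Fos was not counted. Junb differed by -0.37 ± 0.21, Fosb by -0.41 ± 0.18, Fosl2 and Jun each by -0.23 and Jund by -0.17 ± 0.07. These intervals leave room for a difference from wild type of more than 1 on the log2 scale in Fos. The wild type group has 4 libraries with Fos values between 13.6 and 31.2 TPM, which limits the precision of both wild type comparisons.

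**Figure D2:**
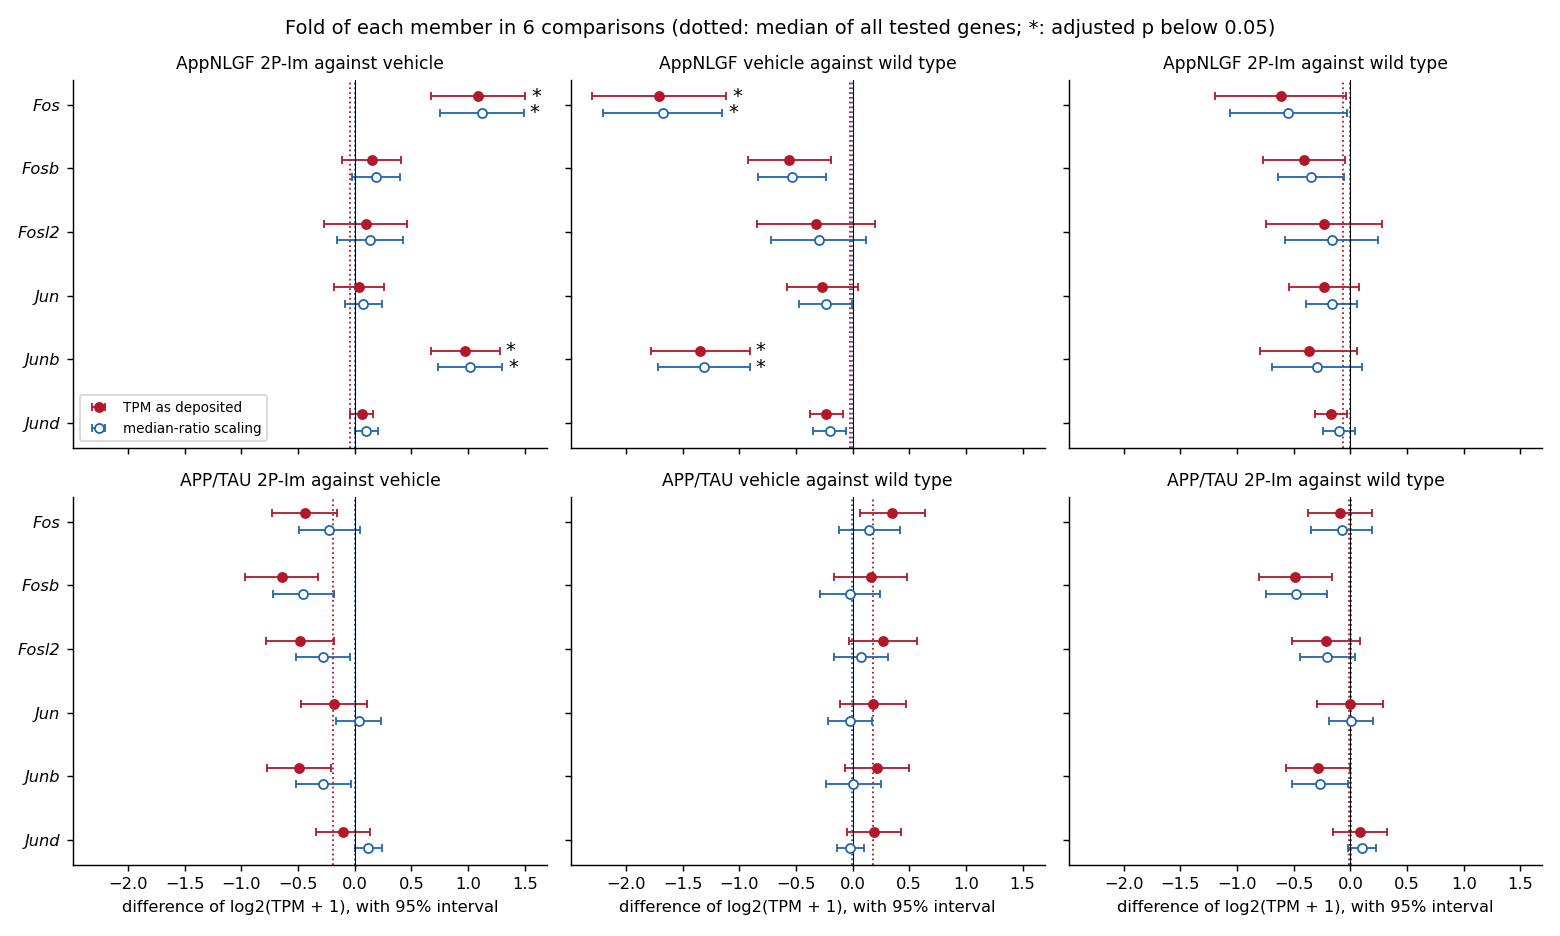
Each panel is a comparison, and each row gives a member's difference in log2(TPM + 1) with its 95% interval, for TPM as deposited (filled) and scaled TPM (open); dotted lines are the medians of all tested genes and asterisks mark an adjusted p below 0.05. In the AppNLGF table Fos and Junb stand at 1.09 and 0.98 for 2P-Im against vehicle and at -1.71 and -1.34 for vehicle against wild type; no member has an asterisk in the APP/TAU table.

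Libraries with and without Xist, and those with low and high replicate numbers, were fitted apart. Among libraries with Xist at 10 TPM or less, Fos differed by 1.41 ± 0.25 and Junb by 1.27 ± 0.17 between 2P-Im and vehicle (n = 6 each), both called, where 0.0477% of all genes were; both were also called with scaled TPM (0.149%). Among libraries above 10 TPM, Fos differed by 0.84 ± 0.26 and Junb by 0.74 ± 0.17 (7 treated and 5 vehicle), and neither was called by limma, where 0% of genes were and 558 had an unadjusted p below 0.05. The difference between these classes was -0.57 ± 0.36 for Fos and -0.53 ± 0.24 for Junb and was not called; 0% of genes were, with 349 at an unadjusted p below 0.05. In scaled TPM, treated libraries averaged 18.5 TPM of Fos with low Xist and 11.2 with high Xist, against 6.13 and 5.59 in vehicle. Junb averaged 47.3 and 30.2 TPM in treated, against 18.4 and 17.1 in vehicle.

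All 4 wild type libraries had low Xist, and against the 6 low-Xist vehicle libraries Fos differed by -1.63 ± 0.28 and Junb by -1.27 ± 0.19. Both were called, as were 0.209% of genes, and both were also called with scaled TPM (0.483%). All 4 also carry replicate numbers below 6, and against vehicle libraries 1 to 5 Fos differed by -1.90 ± 0.31, Junb by -1.44 ± 0.25 and Fosb by -0.81 ± 0.18, all 3 called on both scales (0.34% of genes as deposited and 0.608% scaled). Within replicate numbers 1 to 5, the differences between 2P-Im and vehicle were 0.95 ± 0.30 for Fos and 0.93 ± 0.23 for Junb, and within numbers 6 and above 1.13 ± 0.25 and 0.99 ± 0.20. None of these 4 was called with deposited TPM, where 0.0238% and 0.00596% of genes were. With scaled TPM both were called within numbers 1 to 5 (1.85% of genes) and Junb was within the higher numbers (0.0358%). The size of the difference was thus close to that of all libraries in each part of the numbering, with fewer libraries behind it.

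**Figure D3:**
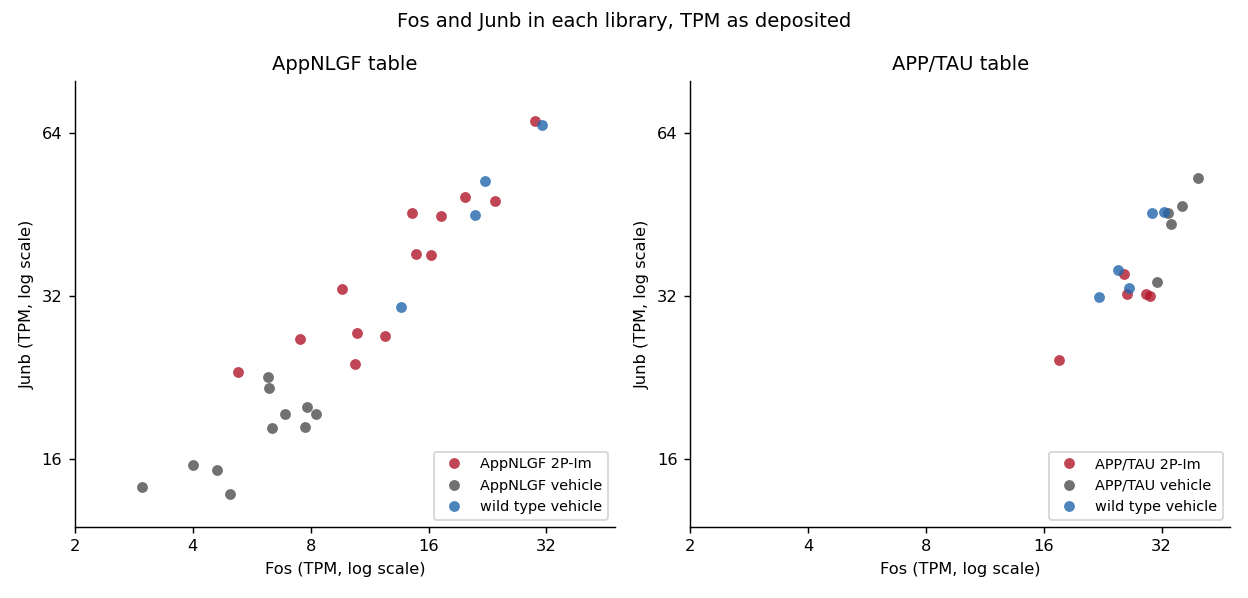
Fos and Junb are plotted against each other for each library of the 2 tables on log axes of TPM as deposited, in the colours of the groups. AppNLGF vehicle libraries gather at the low corner, with Fos at most 8.25 TPM, and the libraries of the APP/TAU table have more Fos for their Junb. Fos was at 0.663 to 0.932 times Junb in APP/TAU treated and wild type libraries and 0.225 to 0.494 times in AppNLGF treated and wild type libraries of 6 months.

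The make-up of the family's RNA differed between groups. The 7 members together summed to 155 ± 32.2 TPM in AppNLGF treated, 121 ± 10.7 in AppNLGF vehicle and 188 ± 26.2 in wild type libraries. Fos made up 9.15 ± 2.52% of that sum in treated, 4.92 ± 1.16% in vehicle and 11.5 ± 2.38% in wild type libraries. For Junb the shares were 24.0 ± 3.70%, 15.0 ± 1.95% and 25.5 ± 5.10%, and for Jund 46.9 ± 5.88%, 56.4 ± 4.55% and 42.9 ± 5.26%. Junb RNA was 2.83 ± 0.65 times the Jun level in treated, 1.43 ± 0.28 times in vehicle and 3.08 ± 0.66 times in wild type libraries. The ratio of Fosb to Fos was 0.473 ± 0.141 in treated, 0.954 ± 0.200 in vehicle and 0.413 ± 0.128 in wild type libraries. Shares and ratios follow from the levels above and are no separate evidence.

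In the AppNLGF table some single transcripts have rows of their own beside the gene row. Gene and transcript rows together add to 100% of each library's TPM. The gene values of that table thus leave out these transcripts, unless values were rescaled, which the sources used here do not state. The Fos levels, shares and ratios above, and the counts of Fos above Jun, then lack the Fos transcripts given below. The APP/TAU table has no transcript rows, and its gene rows add to 84.9 to 90.8% of a library's TPM. Its gene values may thus leave out transcripts too, which was not tested. Of 4 annotated Fos transcripts 3 have a row of their own in the AppNLGF table, all noncoding. The Fos transcript ENSMUST00000136122 averaged 2.10 ± 1.00 TPM in treated, 0.562 ± 0.461 in vehicle and 2.23 ± 1.34 in wild type libraries, and it was listed at 0 in 3 of 11 vehicle libraries and in no other. ENSMUST00000140525, which starts at the same base, averaged 1.57 ± 1.51 TPM in treated, 0.977 ± 0.633 in vehicle and 2.14 ± 2.86 in wild type libraries, with wide overlap. A retained-intron transcript of Fosb averaged 0.606 ± 0.146, 0.448 ± 0.149 and 0.769 ± 0.540 TPM in the same order. Those of Fosl2 averaged 1.10 and 1.20 TPM in treated, 0.730 and 0.976 in vehicle and 1.80 and 1.72 in wild type libraries. Jun and Jund have 1 annotated transcript each and no such row.

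In APP/TAU mice no member was called in any comparison, and with 2P-Im the members' values were lower rather than higher. Fos was 26.1, 17.5, 29.9, 29.3 and 25.7 TPM in treated libraries 1 to 5, against 36.1, 39.6, 33.2, 33.9 and 31.1 TPM in vehicle libraries. Every treated value was below every vehicle value, and the difference was -0.44 ± 0.13. Fosb was 3.98, 3.40, 3.53, 4.32 and 4.66 TPM in treated libraries, against 7.30, 8.19, 6.74, 7.21 and 4.79 TPM in vehicle (-0.65 ± 0.15). The Fosb ranges did not overlap either, though treated library 5 and vehicle library 5 were close. Fosl2 was 8.48, 8.34, 6.79, 8.66 and 8.49 TPM in treated libraries, against 11.1, 16.0, 11.3, 12.5 and 8.87 TPM in vehicle (-0.49 ± 0.14). Junb was 32.3, 24.4, 32.1, 32.3 and 35.2 TPM in treated libraries, against 46.9, 52.9, 45.6, 43.5 and 34.1 TPM in vehicle, with 4 of 5 treated libraries below every vehicle library (-0.50 ± 0.13). Jun (-0.18 ± 0.14) and Jund (-0.10 ± 0.11) overlapped between the groups.

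These differences moved with the scaling. As deposited, the median of all 17592 genes was -0.19 in this comparison, 0% of genes were called by limma although 4719 had an unadjusted p below 0.05, and 3.62% of genes had every treated value below every vehicle value. With scaled TPM the differences were -0.22 ± 0.12 for Fos, -0.45 ± 0.12 for Fosb, -0.28 ± 0.11 for Fosl2 and -0.28 ± 0.12 for Junb, while Jun (0.03) and Jund (0.12) turned positive. Then 1, 4 and 4 of 5 treated libraries were below every vehicle library for Fos, Fosb and Fosl2, and no member lay wholly below, where 0.898% of all genes did. No member was called with scaled TPM, where 0.0114% of genes were. The most abundant RNA took 29.5 ± 1.54% of TPM in treated, 22.0 ± 6.59% in vehicle and 30.1 ± 3.72% in wild type libraries, and its part in the deposited differences was not tested beyond this scaling.

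APP/TAU vehicle libraries against wild type gave differences of 0.35 ± 0.13 for Fos, 0.27 ± 0.14 for Fosl2, 0.21 ± 0.13 for Junb, 0.19 ± 0.11 for Jund, 0.18 ± 0.14 for Jun and 0.16 ± 0.15 for Fosb. The median of all genes was 0.18, and 0.0227% of genes were called. With scaled TPM Fos differed by 0.15 ± 0.12 and the other members by -0.02 to 0.08 (0.0284% of genes called). Fos was 30.3, 22.1, 24.8, 32.4 and 26.5 TPM in wild type. Thus 4 of 5 vehicle libraries were above every wild type library as deposited and 3 of 5 with scaled TPM. Of all genes 2.01% and 1.2% lay wholly above, and the shares with 4 or 3 of 5 above were not counted. Between treated and wild type libraries Fosb had the largest member difference, -0.49 ± 0.15 as deposited and -0.48 ± 0.12 scaled. On both scales 4 of 5 treated libraries were below every wild type library. Of all genes 0.125% and 0.898% lay wholly below, and the share with 4 of 5 below was not counted. Fosb was not called, where 0.0227% and 0.0284% of genes were, and the other members differed by -0.28 to 0.09 as deposited.

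**Figure D4:**
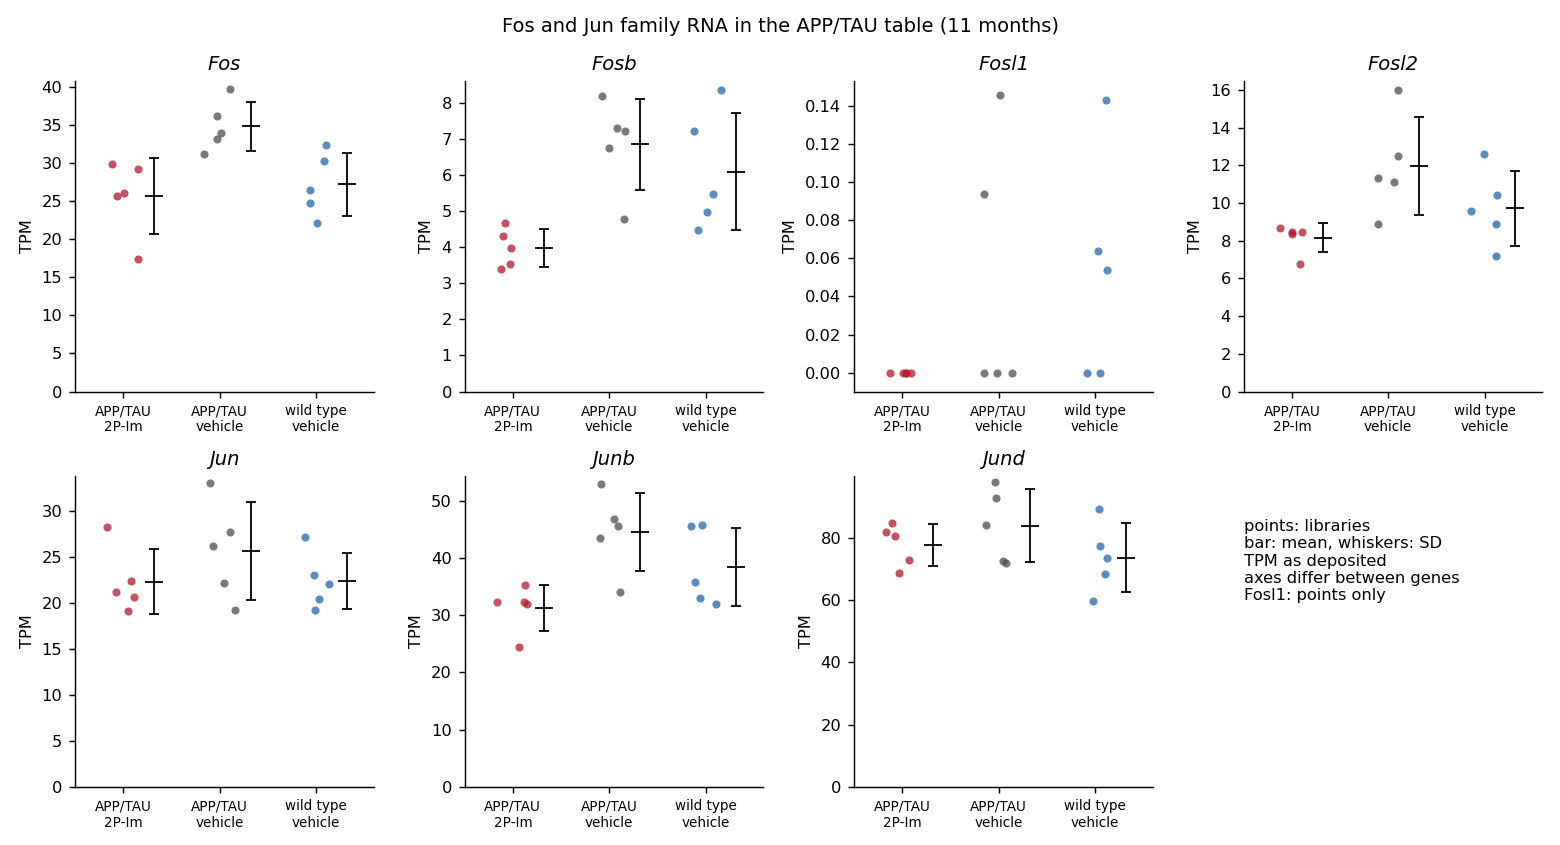
Each panel shows the TPM of a family member in the APP/TAU table, 1 point per library, for APP/TAU mice on 2P-Im, APP/TAU mice on vehicle and wild type mice on vehicle (n = 5 each); the bar is the mean and the whiskers are the SD, and Fosl1 is shown as points alone. Fos, Fosb and Fosl2 are lower in every 2P-Im library than in any vehicle library with these deposited values.

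Both the genotype and the treatment differences of Fos and Junb were set between the tables in 1 fit of 6 group means. Since these differences were known when the family was chosen, the calls describe the choice and are no independent support. The treatment difference was higher in the AppNLGF table than in the APP/TAU table by 1.53 ± 0.33 for Fos and 1.47 ± 0.25 for Junb, both called, where 0.134% of genes were. With scaled TPM these were 1.35 ± 0.29 and 1.29 ± 0.23 (0.0731% of genes called). The genotype difference was lower in the AppNLGF table by 2.06 ± 0.37 for Fos and by 1.56 ± 0.28 for Junb, both called (0.177% of genes), and by 1.82 ± 0.33 and 1.32 ± 0.26 when scaled (0.53%). No other member was called. The tables differ in model, age, length of dosing, and brain region markers, which cannot be told apart here.

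Correlations between members were taken across the libraries of 1 group. Over the 13 treated AppNLGF libraries, scaled Fos and Junb had a Pearson r of 0.83 (permutation p adjusted over 15 pairs of members = 0.008) and a Spearman rho of 0.87 (permutation p, adjusted, = 0.006), and r was 0.80 without the 2 libraries farthest from the median of Fos. Fosb and Fosl2 had r = 0.76 (permutation p, adjusted, = 0.023), which was 0.53 without the 2 farthest libraries. Of the other 13 pairs, 5 passed by r but not by rho (r of 0.63 to 0.65, permutation p, adjusted, = 0.046), and Fos and Jund had r = 0.05. With deposited TPM 14 of the 15 treated pairs passed by r, against 7 of 15 with scaled TPM. Over the 11 vehicle libraries 6 pairs passed by r with deposited TPM and 0 with scaled TPM; Fos and Junb had r = 0.67 and Fosb and Fosl2 r = 0.81 (permutation p, adjusted, = 0.095 and 0.051). Within classes of these 13 libraries the relation varied, over 6 relations computed. Fos and Junb had r = 0.91 over the 8 libraries numbered 6 and above (exact permutation p, adjusted, = 0.00804). They had r = 0.73 over the 6 low-Xist libraries (exact permutation p, adjusted, = 0.138) and r = 0.63 over the 7 high-Xist libraries (0.156), so by r the relation did not pass within either Xist class; by rho it passed among the low-Xist libraries (0.94, exact permutation p, adjusted, = 0.0333) and not among the high-Xist ones (0.43, 0.354). Without the 2 farthest libraries r was 0.25 and 0.32 in the low-Xist and high-Xist classes. That leaves too few libraries to tell whether the relation there rests on those 2. Fosb and Fosl2 had r = 0.47 over the low-Xist, 0.91 over the high-Xist and 0.69 over the later-numbered libraries, of which the second passed (exact permutation p, adjusted, = 0.00804). Numbers 1 to 5 hold 5 treated libraries, too few for a correlation.

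With group means taken away, the genes most like each member were listed as a description over the 28 libraries of the AppNLGF table. For Fos they were Nr4a1 (r = 0.83), Egr2 (0.78) and Mcl1 (0.77), where 95% of all genes had r below 0.41. For Junb they were Nr4a1 (0.85), Btg2 (0.83) and Dusp1 (0.81), for Fosl2 Nr4a3 (0.93), Bhlhe40 (0.85) and Egr1 (0.85), and for Fosb Egr4 (0.77), Nr4a3 (0.71) and Nifk (0.71). Jun had Spink8 (0.84), Cpne7 (0.84) and Pcdh19 (0.81), and Jund had Pcsk1n (0.80), Mlf2 (0.78) and Eif5a (0.78). Nr4a1, Nr4a3, Egr1, Egr2 and Egr4 are activity-induced transcription factors, Btg2 is an early response gene, and Dusp1 is the phosphatase that turns off MAP kinases.

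Over the 15 libraries of the APP/TAU table the lists were other genes: Phka2 (0.92), Sema3g (0.87) and Hnrnpf (0.87) for Fos, Rsbn1 (0.91), Phka2 (0.84) and Tpd52l1 (0.82) for Junb, Cntnap5b (0.88), Sik1 (0.87) and Bcl2l13 (0.86) for Fosb, and Cop1 (0.86), Sik1 (0.86) and Dmxl1 (0.86) for Fosl2. Jun had Slc25a23 (0.91), Islr2 (0.89) and Icam5 (0.87), and Jund had Dnajc30 (0.88), Hs6st3 (0.86) and Mrpl32 (0.84). Of the 20 genes most like a member in each table, the tables shared 0 or 1, which is 0 or 5% of each list. Between members, Fos and Junb had r = 0.82 over the 28 libraries and r = 0.79 over the 15. All values of a library share its library preparation and its scaling.

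The pathway around the family was read from 6 lists of other genes. These lists were chosen with earlier results of these data known. Their counts and p-values are therefore a description and no independent support for the differences of Fos and Junb. Of 28 other immediate early genes, all tested, 7 fell and none rose in AppNLGF vehicle against wild type, where 0.0596% of all genes fell, and their median was -0.46 against -0.03 for all genes; scaled, 11 fell and the median was -0.43. Without wild type library 2 the count was 2, and without wild type library 3 it was 3. Nr4a1, a nuclear receptor induced by activity, averaged 21.1 ± 4.21 TPM in vehicle and 55.4 ± 15.4 in wild type (-1.33 ± 0.22, limma adjusted p = 0.00185). Npas4, a neuron-specific factor switched on by calcium entry, averaged 2.04 ± 0.51 TPM in vehicle and 5.82 ± 1.47 in wild type (-1.16 ± 0.20, adjusted p = 0.00189). Dusp1 averaged 7.32 ± 1.81 TPM in vehicle and 19.5 ± 6.40 in wild type (-1.27 ± 0.24, adjusted p = 0.00624). Arc, which acts on glutamate receptors at synapses, averaged 36.1 ± 14.2 TPM in vehicle and 84.9 ± 25.6 in wild type (-1.24 ± 0.24, adjusted p = 0.0107). With scaled TPM Per1, a clock gene that also answers to CREB, differed by -0.54 ± 0.09 (adjusted p = 0.00153).

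Between 2P-Im and vehicle in AppNLGF mice, 2 of the 28 rose and none fell (0.0477% of all genes rose), with a median of 0.28 against -0.04 for all genes; scaled, 6 rose and the median was 0.32. Leaving out treated library 5 gave 6 called as deposited, treated library 6 or vehicle library 6 gave 5, and treated library 4 or 7 gave 4. Arc averaged 83.2 ± 23.9 TPM in treated and 36.1 ± 14.2 in vehicle libraries (1.20 ± 0.17, limma adjusted p = 0.00182), and Nr4a1 averaged 44.7 ± 15.3 in treated and 21.1 ± 4.21 in vehicle (0.99 ± 0.16, adjusted p = 0.00264). Per1 (0.42 ± 0.07, adjusted p = 0.00138) and Ier2 (0.61 ± 0.11, adjusted p = 0.0107), an early response nuclear protein, were among those called with scaled TPM. Against wild type, 0 of the 28 were called with either scale by limma, with 1 and 2 at an unadjusted p below 0.05, and the median was -0.22 as deposited.

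Of the same 28 immediate early genes, 0 were called by limma in any APP/TAU comparison. Between 2P-Im and vehicle 22 had an unadjusted limma p below 0.05 as deposited, where 4719 of all 17592 genes did. When scaled, 11 did, where 1556 of all genes did. All 28 differences were negative as deposited and 25 when scaled. Their median was -0.42 against -0.19 for all genes, or -0.21 against 0.00 when scaled. Arc averaged 49.1 ± 3.40 TPM in treated, 80.1 ± 13.9 in vehicle and 67.2 ± 14.3 in wild type libraries of that table.

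The genes that feed into AP-1 or act beside it differed little with deposited TPM. Of 28 upstream kinases (27 tested), 18 upstream transcription factors and coactivators and 12 regulators of Fos and Jun RNA or protein (all tested), 0 were called with deposited TPM in any of the 6 comparisons. Their unadjusted p was below 0.05 for at most 1 member of a list in the AppNLGF comparisons. Their medians lay between -0.12 and 0.01 there. With scaled TPM Stat3, which carries cytokine signals to the Fos promoter, was called in AppNLGF 2P-Im against wild type (0.29 ± 0.06, limma adjusted p = 0.00823). Scaled Stat3 averaged 14.2 ± 1.17 TPM in treated, 13.7 ± 0.57 in vehicle and 11.4 ± 1.47 in wild type libraries. Among 20 related basic leucine zipper factors, 15 of them tested, 0 were called with deposited TPM in any of the 6 comparisons, with at most 1 at an unadjusted p below 0.05 in an AppNLGF comparison. With scaled TPM a gene of this list, not reported here, was called in AppNLGF vehicle and in AppNLGF 2P-Im against wild type.

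Of 24 AP-1 target genes, 18 were tested. Plau, the urokinase gene and a classical AP-1 target, rose in AppNLGF vehicle against wild type, at 2.14 ± 0.38 TPM in vehicle and 0.757 ± 0.194 in wild type (0.83 ± 0.17, limma adjusted p = 0.0156), which is opposite in sign to Fos and Junb. That call with deposited TPM was lost without wild type library 1, 2 or 4, in a group of 4. Scaled, Plau differed by 0.84 ± 0.14 between the same groups (limma adjusted p = 0.000821). The median of the 18 was 0.04 in vehicle against wild type and -0.01 in 2P-Im against vehicle, where 0 were called by limma with either scale and 0 and 2 had an unadjusted p below 0.05. Against wild type with scaled TPM, treated libraries had higher Plau (0.70 ± 0.14, limma adjusted p = 0.00601) and Hmox1 (0.48 ± 0.12, adjusted p = 0.0480). Hmox1 is the heme oxygenase gene and is also a target of NRF2. AppNLGF vehicle libraries were near the treated level for both. Scaled Hmox1 averaged 3.18 ± 0.72 TPM in treated, 3.07 ± 0.40 in vehicle and 1.96 ± 0.29 in wild type libraries. Scaled Plau averaged 1.86 ± 0.59, 2.09 ± 0.29 and 0.727 ± 0.173 TPM in the same order.

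**Figure D5:**
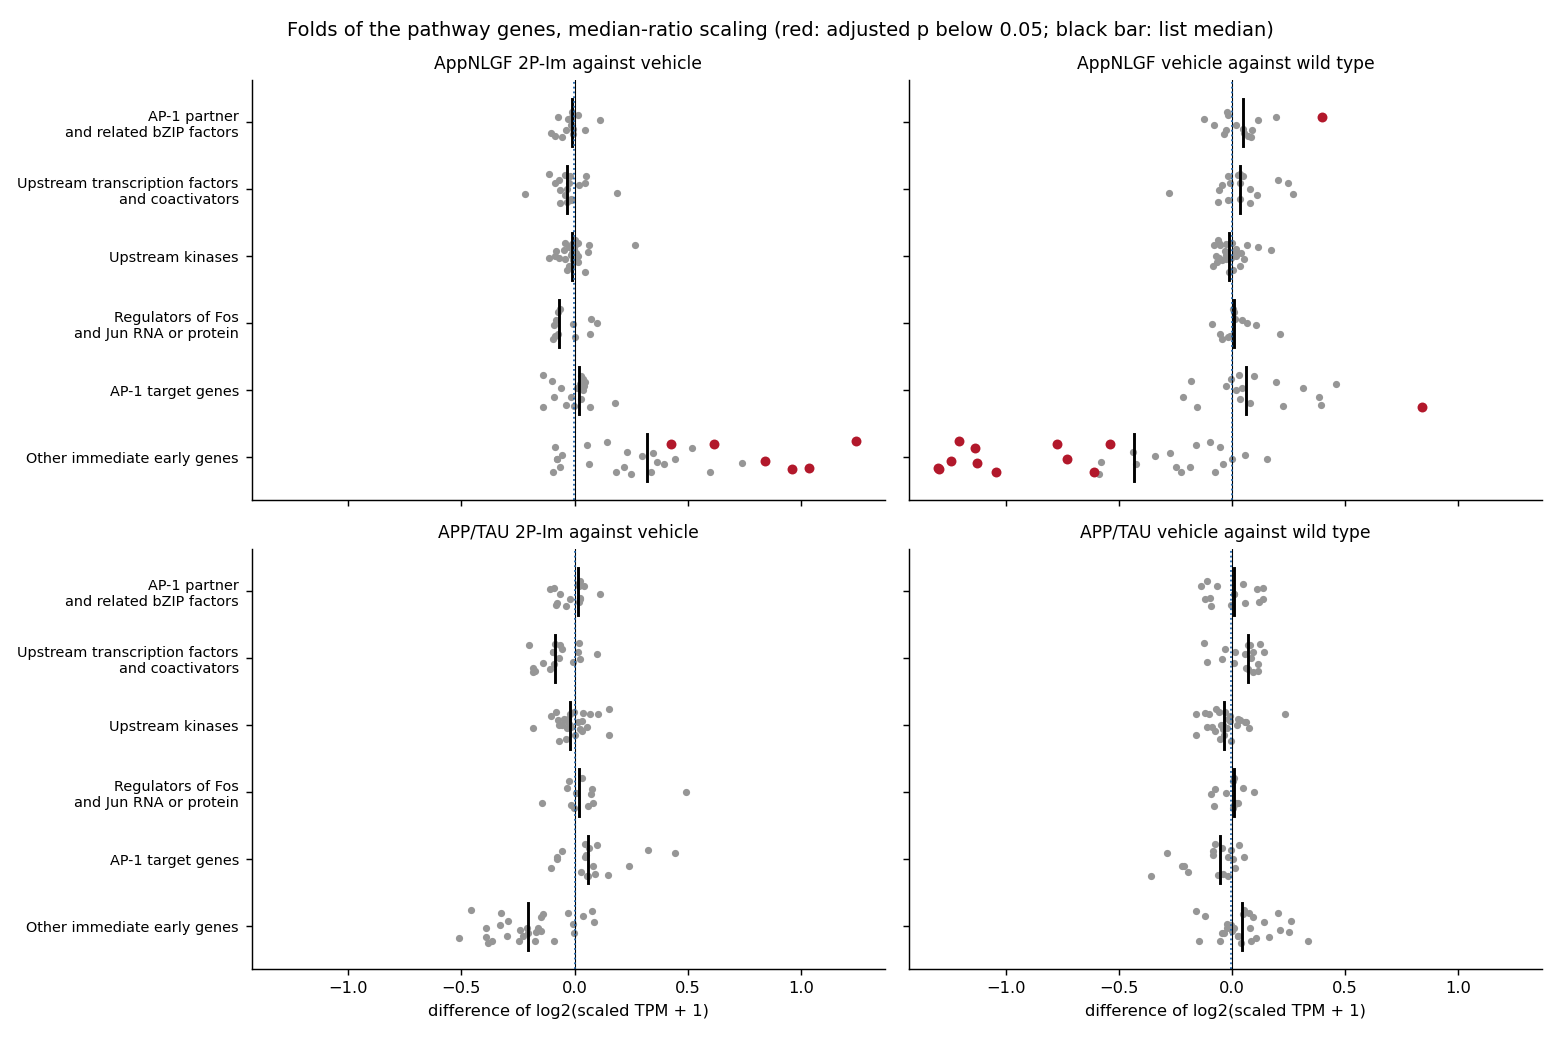
Each point is a gene of 1 of the 6 lists, placed by its difference in log2(scaled TPM + 1). The panels are 2P-Im against vehicle and vehicle against wild type in each table. Black bars are list medians, the dotted line is the median of all tested genes, and red marks an adjusted p below 0.05. Other immediate early genes stand apart in the AppNLGF table. With deposited TPM, which are not drawn, their medians were 0.28 for 2P-Im against vehicle and -0.46 for vehicle against wild type. Those of the other lists of that table then lay between -0.12 and 0.04.

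Markers of cell types were summed beside these results. In AppNLGF vehicle against wild type the mean log2(TPM + 1) of 6 astrocyte markers was higher by 0.36 (two-sided exact permutation p adjusted over 18 scores = 0.0264), with summed levels of 738 to 970 TPM in vehicle and 724 to 763 in wild type. Scaled, that of 6 microglia markers was higher by 0.35 (exact permutation p, adjusted, = 0.0156) and that of 5 endothelial markers by 0.22 (0.0117). The 5 blood markers were lower by 1.24 without passing (exact permutation p, adjusted, = 0.0844), with sums of 16.6 to 129 TPM in vehicle and 84.6 to 246 in wild type. Neither neuron markers (1904 to 2353 TPM in vehicle and 2190 to 2377 in wild type) nor excitatory neuron markers passed. Between 2P-Im and vehicle the endothelial score, higher by 0.14 in scaled TPM (permutation p, adjusted, = 0.00352), was the only score of 16 that passed, and no score passed with deposited TPM. Between treated AppNLGF and wild type libraries, inhibitory neuron markers were lower by 0.22 as deposited (exact permutation p, adjusted, = 0.0151), and scaled astrocyte and endothelial scores were higher by 0.30 and 0.36 (both 0.0134). No score passed in the APP/TAU table. The part of these cell types in the Fos and Junb differences was not tested.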

How the data were processed

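RNA of mouse brain was sequenced in 43 libraries, prepared with a directional kit per the labels' protocols. Abundance was estimated with Salmon on GRCm38 (mm10), per the submitters' processing notes; no version or annotation release is named there. The authors deposited TPM per gene in 2 tables, and no table gives depth. The AppNLGF table also holds 64708 transcript rows, used only for the members' own transcripts. Libraries were grouped by title.

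Genes with a mean of at least 1 TPM were tested, 16776 and 17592, as log2(TPM + 1), a scale that understates changes of low genes. Each table was fitted with limma 3.58.1 (R 4.3.3; 3 group means, variance trend, two-sided), and p adjusted over all genes (Benjamini-Hochberg); a gene was called below 0.05. The fit was tested on simulated data. Scores were compared with permutation tests, exact or with 100000 resamples, and correlations with 100000 (scipy 1.17.1). Promoters are from RefSeq on GRCm38.p6; 6 of the 7 members matched, and Fosl2 and Jund, whose RefSeq starts lie 671 and 1210 bases from the GENCODE starts, are not shown (Fosb 6 and Junb 30 bases, Fos and Jun 0).

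The members and all lists were chosen with earlier results of these data known. Besides members, up to 4 called genes per list and comparison with the smallest p, and the 3 genes most like each member, were named; Plau, Stat3, Hmox1 and the others named follow that rule, 1 gene under it is not reported here, and the Arc values of the APP/TAU table were added after values were seen. Alternatives were median-ratio scaling, a pseudocount of 0.1, a minimum mean of 5 TPM or none, the replicate number as a block, terms for Xist or for replicate numbers 1 to 5, and leaving out each library; fits and correlations within classes, and joint settings, were added after seeing the data.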

Additional observations from a re-analysis of the deposited data

Results flagged for a closer look

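Fos and Junb had unlike differences in the tables under the same contrasts. These values were known when the family was chosen, so they are a description and no independent support. Their genotype difference in the AppNLGF table minus that in the APP/TAU table was -2.06 for Fos and -1.56 for Junb. For the treatment difference, the same subtraction gave 1.53 for Fos and 1.47 for Junb.

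A single library stood far from the rest of its group for 2 member values among 24 such groups looked at, and chance alone sets apart about 1 in 20. Jun was 20.1 TPM in wild type library 2 of the AppNLGF table, above the other 3, which lay between 13.9 and 14.8 TPM. Fosl2 was 6.79 TPM in APP/TAU 2P-Im library 3, below the other 4, the nearest of which was at 8.34 TPM.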

How the results depend on the processing

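Fos and Junb were called in AppNLGF vehicle against wild type and in 2P-Im against vehicle under median-ratio scaling, a pseudocount of 0.1, a minimum of 5 TPM and a term for Xist, with no exception; other settings follow, and the cause of each change was not tested. Among refits of single member differences other than leaving out a library, 263 kept direction and side of the threshold, 10 gained a call, 2 lost it and 13 turned sign. In vehicle against wild type 47 genes were called in the AppNLGF table, 116 with scaling, 31 with a minimum of 5 TPM, 201 with a term for numbers 1 to 5, 86 with scaling and Xist, and 97 with scaling and numbers; 4 members (Fos, Fosb, Junb, Jund) were called with the term for numbers. In 2P-Im against vehicle 9 genes were called, 48 with scaling, 14 with Xist, 22 with numbers, 88 with scaling and Xist, and 75 with scaling and numbers; with no minimum TPM 1 member (Junb) was. In 2P-Im against wild type 44 were called, 120 with scaling, 25 with a minimum of 5 TPM, 23 with Xist, 5155 with numbers, 98 with scaling and Xist, and 126 with scaling and numbers; with numbers 5 members (all but Junb) were. In APP/TAU 2P-Im against vehicle 0 genes were called and 2 with scaling, with or without the block.

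The replicate numbers were not taken as pairs: correlations of same-numbered deviations from the group means were -0.08 to 0.12. In no comparison did every library correlate best with its own number. However, 3 of 4 did in AppNLGF 2P-Im against wild type and 3 of 5 in APP/TAU 2P-Im against wild type. With a replicate block, 29 genes were called in AppNLGF vehicle against wild type, 4 in 2P-Im against vehicle (18 with scaling) and 3222 in 2P-Im against wild type; 1 member (Junb) was called in 2P-Im against vehicle and 3 (Fosb, Fosl2, Jun) in 2P-Im against wild type.

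Signs turned with scaling for Fosb, Jun and Jund in APP/TAU vehicle against wild type (-0.022, -0.025 and -0.020, with or without the block), for Jun (0.033) and Jund (0.12) in 2P-Im against vehicle, for Jun in 2P-Im against wild type (0.0081), for Jund in AppNLGF 2P-Im against wild type with scaling and the replicate block (0.013), and for the treatment difference of Jund between tables (-0.018). Correlations turned positive with deposited TPM for Fosb and Jund (0.36 treated, 0.40 vehicle), Fosl2 and Jund (0.58 and 0.34), Fosl2 and Junb (0.26, vehicle) and Jun and Jund (0.040, vehicle).

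Leaving out each library in turn, genes called ranged from 29 to 57, 5 to 15 and 17 to 48 in AppNLGF vehicle against wild type, 2P-Im against vehicle and 2P-Im against wild type, and from 4 to 8, 0 to 2 and 4 to 6 in the APP/TAU table; members called in AppNLGF 2P-Im against vehicle ranged from 1 to 2. Jun ranged from -0.011 to 0.079 there and from -0.091 to 0.063 in APP/TAU 2P-Im against wild type, where Fos ranged from -0.16 to 0.035. Depth is unknown, so low values carry no counting error, and 4 wild type libraries limit the AppNLGF genotype comparison. A term for Xist could not be fitted in the APP/TAU table.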
